A study of Mus musculus with 6 samples.

Results

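Genes for collagens, other extracellular matrix proteins and fibroblast markers were followed across whole brown adipose tissue of C57BL/6 mice. The 48 genes were chosen by name, with earlier results of these data known. Each matched a single Ensembl identifier among the 45320 identifiers measured. Of these genes 46 reached the mean of 1 FPKM (fragments counted per length of transcript and per size of the library) required for testing. From the age of 4 weeks all mice ate a calorie-rich diet high in sugar and fat, and after 4 weeks of it they were divided. The treated mice then had RO5508887, a small compound that blocks the protease BACE1, added to that diet (libraries treated 17 and treated 33/35). The untreated mice kept the same diet with no drug (libraries untreated 13, 14 and 15). The tables of samples 33 and 35 held identical values, so they were counted as 1 library, which leaves 2 treated and 3 untreated libraries. Dose, length of treatment and sex were not in the labels, and they do not say if each sample is its own animal, so the spread behind each p-value is that of these samples and may be technical.

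The extracellular matrix is the protein scaffold that cells secrete around themselves. Fibrillar collagens (types I, III and V) build the fibres of the interstitial stroma and are made mainly by fibroblasts, whereas type IV collagen forms the network of basement membranes, the thin sheets that surround each adipocyte and underlie the endothelium of capillaries. In adipose tissue the matrix is remodelled as fat cells enlarge, and fibroblast-like stromal cells that carry PDGFRA include adipocyte precursors. The tissue here was sequenced whole, so fewer cells of a type and less RNA per cell cannot be told apart in any value below.

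The libraries differed in the tissue they held. Skeletal muscle markers made up 3.01% and 1.30% of all FPKM from non-mitochondrial genes in treated 17 and treated 33/35, against 0.0375%, 7.18% and 0.0358% in untreated 13, 14 and 15 (24 markers with an identifier, of which 23 were tested). All 23 were highest in untreated 14. Of the 12 brown adipocyte markers 11 were lowest in that library, and Ucp1, the uncoupling protein that defines brown fat, measured 1119 and 1321 FPKM in the treated libraries against 1837, 227 and 1912 FPKM in the untreated ones. Genes with a value above 0 numbered between 20876 (untreated 15) and 21726 (treated 33/35). FPKM keep no read counts, so the depth behind each value is unknown.

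Short stretches of sequence show how 2 of the collagen classes are laid out in the genome and where the only tested member without overlap between the groups starts. All are from RefSeq, build GRCm38.p6, and are written 5′ to 3′ on the strand of the gene with motif matches on either strand in capitals, none overlapping another. The motifs searched were the GC box GGGCGG, the CCAAT box and the TATA box TATAAA. Col4a1 and Col4a2, the genes of the main chains of type IV collagen, lie head to head on chromosome 8 and run apart on opposite strands. Their first exons share 22 bases at chr8:11312805-11312826, printed on the strand of Col4a2. The other stretches are the 150 bases before the annotated start of Col3a1, the most abundant fibrillar collagen gene (chr1:45311388-45311537, plus strand), and of Col8a1, the only member tested whose groups did not overlap (chr16:57754738-57754887, minus strand).
Col4a1 and Col4a2 shared start: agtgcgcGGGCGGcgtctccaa
Col3a1: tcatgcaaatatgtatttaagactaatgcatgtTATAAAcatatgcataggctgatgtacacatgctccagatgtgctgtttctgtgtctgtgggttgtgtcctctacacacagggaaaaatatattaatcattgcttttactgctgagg
Col8a1: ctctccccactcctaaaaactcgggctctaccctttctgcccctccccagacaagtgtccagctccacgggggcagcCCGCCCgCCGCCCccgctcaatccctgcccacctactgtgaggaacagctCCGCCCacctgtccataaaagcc
The Col3a1 window held 1 TATAAA match and the Col8a1 window 3 GGGCGG matches. Of 32817 such windows in the table, 7.58% held TATAAA, 24.5% CCAAT and 28.6% GGGCGG. RefSeq windows were found for 31 of the 48 members. A match describes the letters only.

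Fibrillar collagens varied several-fold among libraries, and the variation lay within the groups more than between them. Their summed level was 319 and 596 FPKM in treated 17 and treated 33/35, against 509, 468 and 186 FPKM in untreated 13, 14 and 15. The lowest sum belonged to untreated 15 and the next lowest to treated 17, so the groups overlapped.

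Col1a1, the gene of the main chain of type I collagen (chromosome 11, 94936224 to 94953042, GRCm38), measured 43.8 and 76.0 FPKM in the treated libraries, against 71.0, 70.8 and 19.9 FPKM in the untreated ones. Its partner chain Col1a2 measured 65.0 and 96.3 FPKM, against 86.0, 91.5 and 27.6 FPKM in the same order. Col3a1, the gene of type III collagen (chromosome 1, 45311538 to 45349706), measured 178 and 357 FPKM in the treated libraries, against 291, 245 and 111 FPKM in the untreated ones. In each of these genes untreated 15 was lowest and treated 33/35 highest. The type V genes, whose collagen nucleates the fibrils, lay lower but in a similar order. Col5a1 measured 9.43 and 16.7 FPKM with the drug, against 14.5, 14.0 and 6.67 FPKM without it. Col5a2 measured 9.39 and 16.9 FPKM with the drug, against 12.6, 16.3 and 6.42 FPKM without it. Col5a3 was the exception, with its lowest value in treated 17, at 13.7 and 33.0 FPKM with the drug, against 33.9, 29.9 and 14.6 FPKM without it. The ratio of Col1a2 to Col1a1 FPKM moved far less than either gene, from 1.21 to 1.49 over the 5 libraries, whereas each gene spanned more than 3-fold (3.81-fold for Col1a1 and 3.49-fold for Col1a2).

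Basement membrane collagens fell into a pair of patterns. The abundant type IV genes varied less, whereas Col15a1 and Col18a1, which encode collagens at the border of basement membrane and stroma, varied as the fibrillar genes did. Col4a1 (chromosome 8, 11198423 to 11312826) measured 71.2 and 109 FPKM in the treated libraries, against 103, 79.4 and 84.3 FPKM in the untreated ones. Col4a2 (chromosome 8, 11312805 to 11449287) measured 60.2 and 84.4 FPKM, against 82.7, 57.0 and 73.9 FPKM in the same order. These genes, whose first exons share the bases printed above, were lowest in treated 17 and untreated 14, and untreated 15 was not set apart. Their FPKM ratio, Col4a1 over Col4a2, stayed between 1.14 and 1.39. Col15a1 measured 16.8 and 39.6 FPKM in the treated libraries, against 30.9, 42.4 and 10.7 FPKM in the untreated ones. Col18a1, whose protein can be cut to release endostatin, measured 13.2 and 20.3 FPKM, against 18.2, 19.5 and 9.13 FPKM in the same order. Both were lowest in untreated 15.

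The minor type IV chains were scarce. Col4a3 measured 0.678 and 0.417 FPKM in the treated libraries, against 0.260, 0.494 and 0.25 FPKM in the untreated ones, and Col4a4 0.389 and 0.530 FPKM, against 0.317, 0.477 and 0.189 FPKM. Neither passed the filter on low values. Of the exon bases of Col4a3, 5.65% lie over a gene on the other strand, C430014B12Rik, so its value is uncertain where counting ignored strand. Col4a5 measured 1.42 and 2.54 FPKM with the drug, against 2.16, 2.19 and 2.20 FPKM without it.

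The balance between the classes was lowest in untreated 15, which was already known when the comparison was chosen. The summed fibrillar level over the summed basement membrane level was 1.94 and 2.32 in treated 17 and treated 33/35, against 2.14, 2.32 and 1.03 in untreated 13, 14 and 15. The other 4 libraries thus lay between 1.94 and 2.32. The basement membrane sum itself was 164 and 257 FPKM in the treated libraries, against 237, 201 and 181 FPKM in the untreated ones, and was lowest in treated 17. With the 5 type IV genes alone as the denominator the ratio was 2.38 and 3.02 with the drug, against 2.70, 3.35 and 1.16 without it. Over the full basement membrane sum, the type V genes alone gave 0.198 and 0.259 with the drug, against 0.257, 0.298 and 0.153 without it. There untreated 15 was lowest and treated 17 next, so untreated 15 stood less apart. On the log2 scale the mean ratio of the full sums was 1.09 ± 0.18 in the treated libraries (SD, n = 2) and 0.79 ± 0.65 in the untreated libraries (SD, n = 3). The difference of 0.30 was smaller than the untreated spread, and without untreated 15 it was -0.07. The ratio is a score over chosen genes and was not tested.

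**Figure D1:**
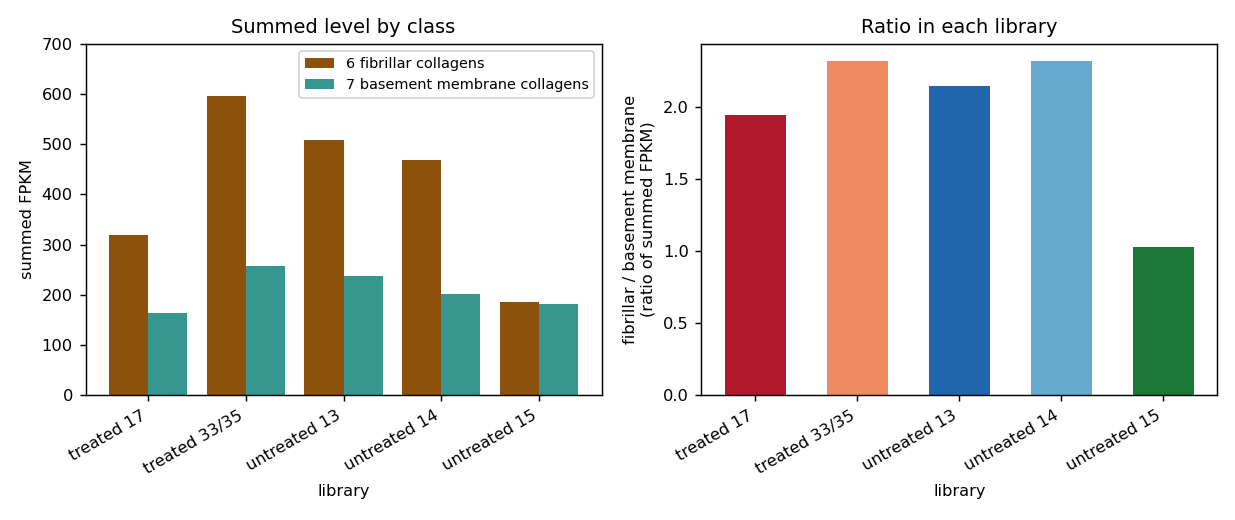
Left, summed FPKM of the 6 fibrillar and 7 basement membrane collagen genes in each library. Right, the ratio of the sums, which is 1.03 in untreated 15 and between 1.94 and 2.32 in the other libraries; bars are single libraries and carry no error.

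Of the 6 other collagens 5 were lowest in untreated 15, and Col12a1 was the exception. The chains of type VI collagen, a beaded filament around adipocytes, stayed close to each other. Col6a1 measured 30.5 and 53.7 FPKM in the treated libraries, against 42.6, 45.8 and 22.4 FPKM in the untreated ones. The ratio of Col6a1 to Col6a2 FPKM lay between 0.944 and 1.02 in all 5 libraries. Col6a3 over Col6a2 was 0.652 and 0.655 in the treated libraries, against 0.730, 0.767 and 0.732 in the untreated ones, a separation picked out after its values were seen and not tested. Col14a1, of a collagen that decorates fibrils, measured 10.6 and 9.19 FPKM with the drug, against 6.74, 10.7 and 2.46 FPKM without it. Col12a1, of a related collagen, measured 9.46 and 13.9 FPKM with the drug, against 10.6, 4.76 and 14.1 FPKM without it. Its lowest value was in untreated 14 and its highest in untreated 15.

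Laminins, nidogen and perlecan, the other building blocks of basement membranes, were the steadiest of the classes with 5 or more tested genes. The median ratio of highest to lowest library was 1.66 over these 6 genes, against 2.92 over the 6 fibrillar collagens and 1.71 over all 13527 genes tested. Hspg2, the gene of perlecan, measured 46.2 and 50.3 FPKM in the treated libraries, against 45.3, 55.0 and 44.8 FPKM in the untreated ones. Lamc1, of the gamma chain shared by most laminins, measured 29.4 and 31.7 FPKM, against 33.7, 25.8 and 26.1 FPKM. Nid1, of the linker nidogen, measured 40.0 and 48.7 FPKM, against 44.3, 49.1 and 29.1 FPKM in the same order. The laminin alpha chains differed from each other. Lama4, of the endothelial and adipocyte chain, was lowest in untreated 14, at 24.3 and 28.1 FPKM with the drug, against 28.5, 17.4 and 19.7 FPKM without it. Lama2, of the chain typical of the muscle fibre basement membrane, was highest in that library, at 6.45 and 7.90 FPKM with the drug, against 5.22, 9.19 and 2.77 FPKM without it. Lamb1 ranged from 16.9 FPKM in untreated 14 to 32.7 FPKM in untreated 13.

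Fibronectin and the elastic fibre genes were all lowest in untreated 15. Fn1, of fibronectin, measured 23.7 and 19.6 FPKM in the treated libraries, against 15.0, 22.7 and 9.41 FPKM in the untreated ones. Fbn1, of the microfibril protein fibrillin, measured 8.09 and 15.2 FPKM, against 7.56, 10.2 and 4.53 FPKM. Eln, of elastin, measured 8.01 and 9.38 FPKM, against 10.4, 15.2 and 7.55 FPKM in the same order.

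Sparc, of a collagen-binding matricellular protein made by adipocytes and endothelium as well as fibroblasts, was the most abundant member and hardly varied. It measured 438 and 530 FPKM in the treated libraries, against 581, 461 and 487 FPKM in the untreated ones. The small proteoglycans that coat collagen fibrils varied more, and so did Dpt. Dcn, of decorin, measured 147 and 144 FPKM with the drug, against 124, 198 and 55.9 FPKM without it. Dpt, of the fibroblast product dermatopontin, measured 80.8 and 141 FPKM with the drug, against 114, 165 and 38.4 FPKM without it. Lum, of lumican, and Bgn, of biglycan, were also lowest in untreated 15, at 9.88 and 40.9 FPKM, and their other values lay between 19.0 and 32.0 FPKM and between 67.2 and 92.3 FPKM. Postn, of periostin, was lowest in untreated 14, as Col12a1 was, at 41.5 and 64.6 FPKM with the drug, against 47.0, 22.3 and 55.5 FPKM without it.

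Genes for enzymes that crosslink or cut the matrix, and for inhibitors that protect it, were mostly lowest in untreated 15. This held for 2 of 3 lysyl oxidases and 4 of 5 proteases and inhibitors, against 25.4% of all genes tested. Lox and Timp3 were the exceptions. Lox, of lysyl oxidase, measured 8.78 and 12.9 FPKM in the treated libraries, against 12.3, 10.2 and 11.8 FPKM in the untreated ones. Loxl1 ranged from 9.29 FPKM in untreated 15 to 13.3 FPKM in untreated 13. Loxl2 ranged from 2.60 FPKM in untreated 15 to 5.27 FPKM in treated 33/35. Of its exon bases 5.57% lie over Gm27177 on the other strand, a gene with a mean of 15.3 FPKM. The value of Loxl2 is thus uncertain where counting ignored strand. Mmp2, a gelatinase, measured 13.6 and 19.0 FPKM with the drug, against 16.8, 16.3 and 5.77 FPKM without it, and Mmp14, which activates it at the cell surface, 4.22 and 10.3 FPKM, against 6.53, 6.63 and 3.11 FPKM. Timp2, an inhibitor of these proteases, measured 30.3 and 29.6 FPKM with the drug, against 29.4, 47.5 and 12.3 FPKM without it. Timp3, an inhibitor bound to the matrix, was high in untreated 15, at 81.9 and 51.6 FPKM with the drug, against 96.1, 69.9 and 93.5 FPKM without it. Timp1, often raised in fibrosis, was scarce except in untreated 14, at 1.39 and 1.27 FPKM with the drug, against 0.729, 2.86 and 0.521 FPKM without it.

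Fibroblast surface genes were present in every library. Pdgfra, a growth factor receptor that marks adipose fibroblasts and precursors, measured 3.74 and 5.71 FPKM in the treated libraries, against 4.47, 5.50 and 2.74 FPKM in the untreated ones. Pdgfrb, its relative on pericytes and other mural cells, measured 9.35 and 11.9 FPKM, against 8.54, 9.64 and 11.6 FPKM, and was not low in untreated 15. Thy1, a surface marker of fibroblasts, measured 8.12 and 10.4 FPKM with the drug, against 7.62, 10.3 and 4.86 FPKM without it. Pi16 and Dpp4 mark a fibroblast population of the fascia and vessel adventitia. Pi16 measured 20.1 and 20.7 FPKM with the drug, against 10.7, 24.3 and 7.62 FPKM without it, and Dpp4 1.91 and 2.18 FPKM, against 1.26, 2.16 and 0.675 FPKM. Both were lower in untreated 13 and 15, the libraries with few muscle transcripts, than in the other 3 libraries. The same order held for 13 of the 46 members tested, against 21.3% of all genes tested, so it was not particular to the members. Beside Pi16 and Dpp4 these were Col8a1, Col14a1, Lama2, Hspg2, Fn1, Fbn1, Dcn, Bgn, Timp1, Timp2 and Thy1. The part of muscle-associated tissue in this was not tested. Tgfb1, of the cytokine that drives matrix production, ranged from 7.0 to 10.1 FPKM.

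**Figure D2:**
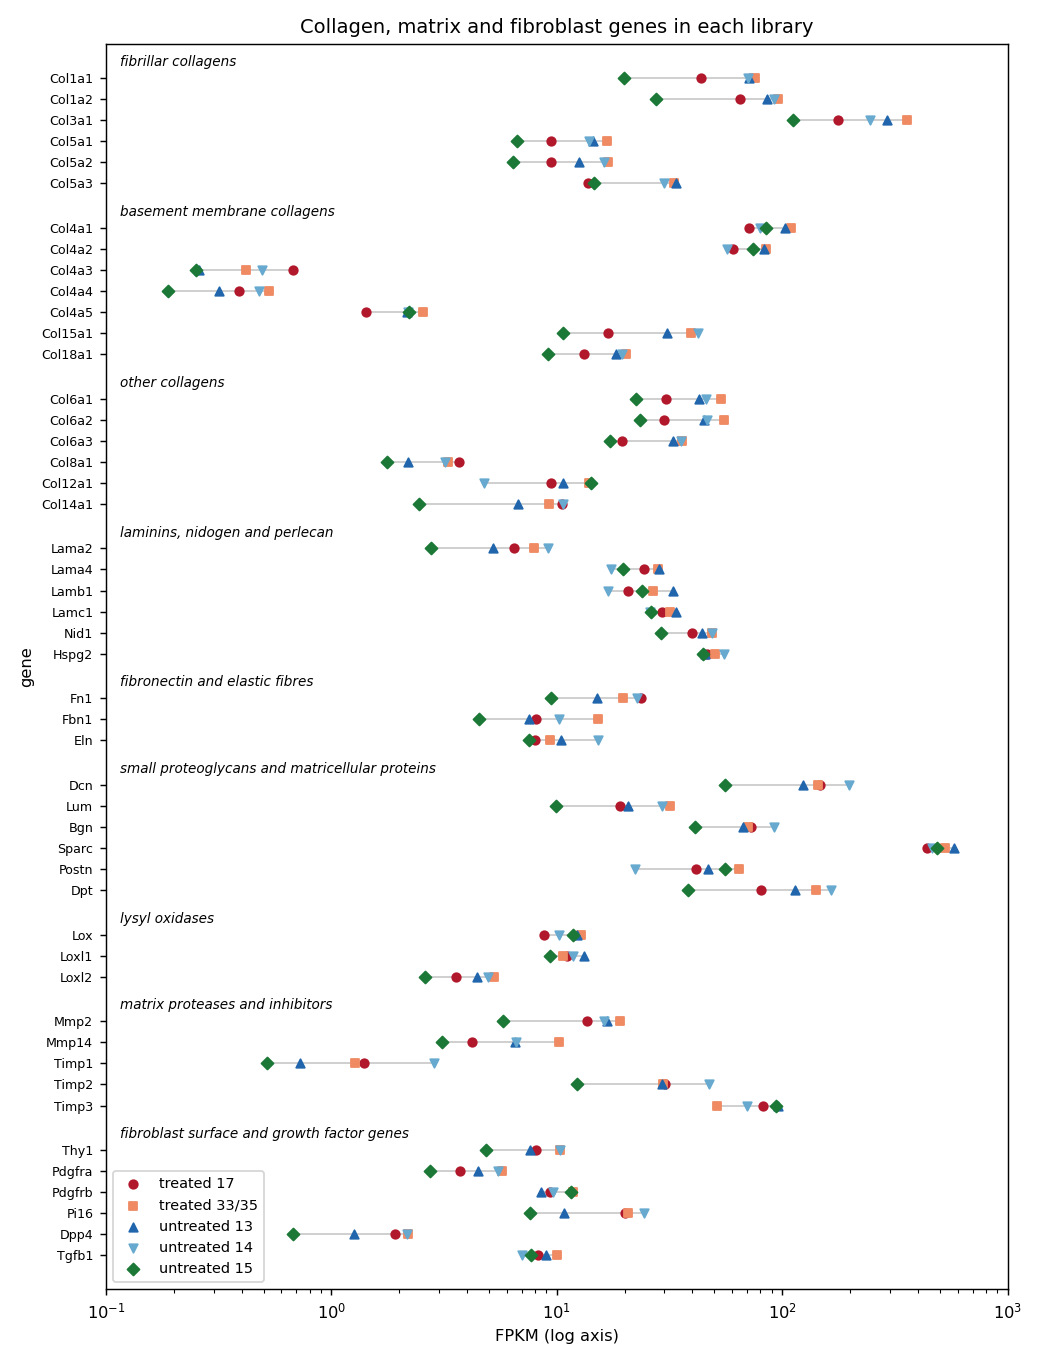
FPKM (log axis) of all 48 genes in each of the 5 libraries, grouped by role, with a grey line from the lowest to the highest value. Untreated 15 lies at the low end of the fibrillar collagens, proteoglycans and most fibroblast genes, whereas Sparc, Col4a1, Col4a2, Hspg2 and Lox span at most 1.54-fold.

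Across the 46 members tested, 32 were lowest in untreated 15, where 25.4% of all genes tested were lowest in that library. The members were chosen with earlier results of these data known, so the counts here are descriptive. In treated 33/35, 24 members were highest, against 21.1% of all genes tested. Untreated 14 was lowest for 7 members, against 43.6% of all genes tested, treated 17 for 5, against 9.3%, and treated 33/35 for 1, against 7.75%. Treated 17 was highest for 2 members, against 5.74%. Untreated 15 and untreated 13, which held equally few muscle transcripts, were set side by side without a test, since each is a single library. Of the members, 42 were lower in untreated 15 than in untreated 13, against 59.6% of all genes tested, and 13 were under 0.5 of the untreated 13 level, against 3.79%. The median ratio was 0.610 over the members and 0.962 over all genes tested. By class it was 0.406 for the fibrillar collagens and 0.820 for the basement membrane collagens. The members that were higher in untreated 15 were Col4a5, Col12a1, Postn and Pdgfrb, with ratios of 1.02, 1.33, 1.18 and 1.36.

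Other stromal lists moved with this difference in part. Macrophage markers had a median ratio of 0.614 between untreated 15 and untreated 13, and all 9 tested were lowest in untreated 15. Schwann cell markers had a median ratio of 0.659 (5 of 7 tested were lowest in untreated 15), endothelial markers 1.05, mural cell markers 0.912 and brown adipocyte markers 0.958. The tendon and fascia list had 4 tested genes, all highest in untreated 14. Their median ratio between untreated 15 and untreated 13 was 1.13, and 1 of the 4 was lower in untreated 15. The whole list summed to 20.3 and 17.9 FPKM in the treated libraries, against 2.53, 46.1 and 1.87 FPKM in the untreated ones. Its marker Kera was at 0 throughout. Mesothelial markers summed to at most 1.11 FPKM and none was tested. The part of these cell types in the result was not tested. The treated libraries also differed from each other. Treated 17 was below treated 33/35 in 37 of 46 members, against 59.4% of all genes tested, and under 0.5 of it in 4, against 1.96%. The median ratio was 0.715 over the members and 0.958 over all genes tested. There the median ratio was 0.560 for the fibrillar collagens and 0.651 for the basement membrane collagens, a narrower gap between the classes than in the untreated pair. Muscle markers moved the other way between these libraries, with a median ratio of 2.40.

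**Figure D3:**
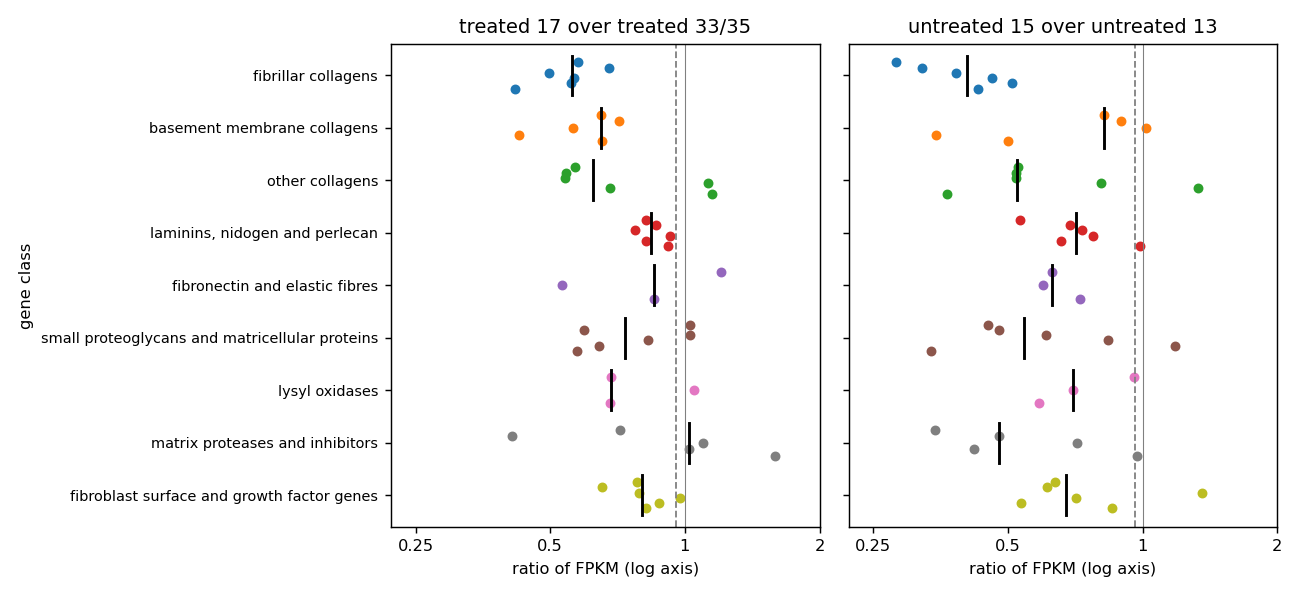
Ratio of FPKM between 2 libraries of the same group for each tested gene (points, log axis), by class with its median (black bar); the dashed line is the median of all 13527 genes tested. Fibrillar collagens have medians of 0.560 for treated 17 over treated 33/35 and 0.406 for untreated 15 over untreated 13, against 0.958 and 0.962 for all genes.

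The design asks whether the inhibitor changed expression in brown fat, and no matrix gene passed the test between treated and untreated tissue. With limma on log2(FPKM + 0.5) and Benjamini-Hochberg adjustment over all 13527 genes at a threshold of 0.05, 0 of 46 members passed, where 0.0444% of all genes tested did (6 genes, 4 higher and 2 lower). At an unadjusted p under 0.05 the count of members was also 0, against 125 of the 13527 genes tested. That share is so small that 0 of 46 does not set the members apart. None of the members rose or fell, where 0.0296% of all genes tested rose and 0.0148% fell. By mean log2 value, 36 members were higher and 10 lower in treated tissue, and 64.3% of all genes tested were higher. The median log2 fold change was 0.18 over the members and 0.06 over all genes tested. Fold changes on this scale understate the change of low genes.

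Col8a1, of a short-chain collagen of vessel walls, was the only member tested whose groups did not overlap. It measured 3.68 and 3.28 FPKM in the treated libraries, against 2.19, 3.19 and 1.77 FPKM in the untreated ones, and untreated 14, rich in muscle transcripts, came close to the treated values. Its mean was 3.48 ± 0.287 FPKM with the drug (SD, n = 2) and 2.38 ± 0.732 FPKM without it (SD, n = 3), which gave 0.49 as log2 fold change (SE 0.27, limma adjusted p = 1.00). Of all genes tested, 8.68% had groups that did not overlap, 5.5% with the treated libraries above, so 1 of 46 members is no more than the background.

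The members of smallest p in each class did not pass, each with a limma adjusted p of 1.00, although several differences exceeded their standard errors. Among fibrillar collagens the log2 fold change was 0.39 (SE 0.61) for Col1a2 and 0.34 (SE 0.55) for Col3a1. Among basement membrane genes it was 0.14 (SE 0.41) for Col18a1, -0.15 (SE 0.26) for Col4a5, 0.28 (SE 0.26) for Lama4 and 0.43 (SE 0.49) for Lama2. Col14a1 had the highest value of any member, 0.74 (SE 0.60). Fbn1 had 0.62 (SE 0.44) and Fn1 0.53 (SE 0.39). Among the proteoglycans and matricellular proteins Lum had 0.43 (SE 0.53) and Postn 0.41 (SE 0.47). The crosslinking enzymes Loxl2 and Lox had 0.15 (SE 0.33) and -0.10 (SE 0.22), and Mmp2 had 0.44 (SE 0.53). Timp3 had the lowest value, -0.40 (SE 0.29). Pi16 had 0.67 (SE 0.51) and Dpp4 0.53 (SE 0.40). The remaining members lay between -0.28 for Eln and 0.38 for Dcn.

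Single libraries decided the direction of much of this. Without untreated 15, 17 of 46 members had a higher mean in the treated group. The members' median log2 fold change was then -0.08, against 0.05 over all genes tested. Of the 6 fibrillar collagens 0 had a higher mean, against 5 with that library. Without treated 33/35, 21 of 46 had a higher mean. Leaving out untreated 14, the library rich in muscle transcripts, gave a median of 0.33 over 45 members tested, against 0.009 over all genes tested. Again 0 members were past the threshold, against 158 of 13368 genes tested. Pi16 then had the smallest p of the members, at 1.13 on the log2 scale (SE 0.18, limma adjusted p = 0.103), but that comparison sets treated libraries with muscle transcripts against untreated libraries with few, so the inhibitor and the muscle content of the samples cannot be told apart. With the mean log2 level of the muscle markers as a covariate Postn passed, at 0.95 (SE 0.20, limma adjusted p = 0.0440). It was 1 of 46 members, in a fit that called 1944 of 13527 genes tested. In that fit 23 members were higher and 23 lower in treated tissue, with a median log2 fold change of 0.0032, against 0.07 over all genes tested. Of the fibrillar collagens 2 of 6 were higher, with a median of -0.03, and the values of Pi16 and Col8a1 were 0.07 and 0.23.

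**Figure D4:**
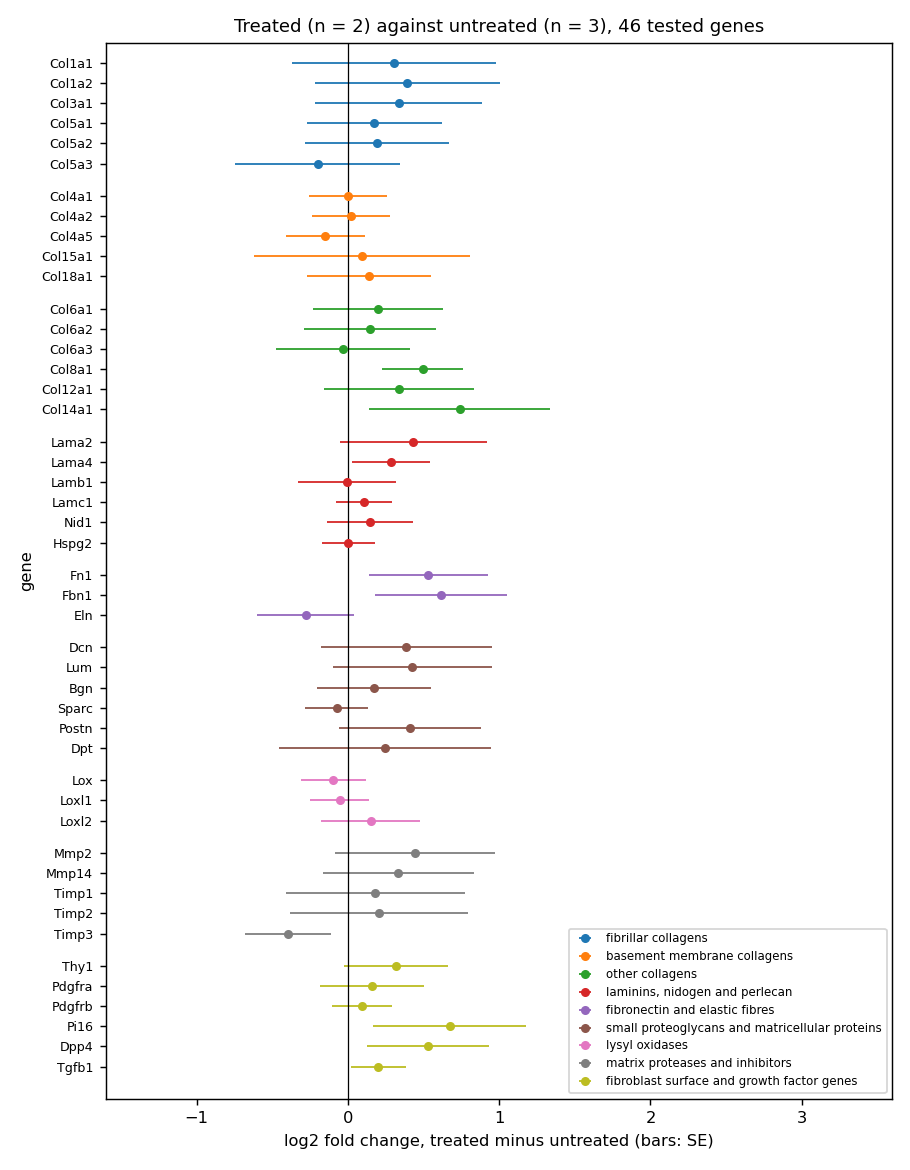
Log2 fold change (treated minus untreated, log2(FPKM + 0.5) scale) of the 46 tested genes, by role; points are limma estimates and bars their SE, from 2 treated and 3 untreated libraries. Values lie between -0.40 (Timp3) and 0.74 (Col14a1), and none passed the adjusted threshold.

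The machinery that makes and reads the matrix was compared from lists of further genes. Among 23 tested genes of collagen making and processing, 14 had higher and 9 lower means in the treated group, 0 passed, and the median log2 fold change was 0.04. P4ha1, a prolyl hydroxylase that stabilises the collagen helix, measured 14.6 and 9.66 FPKM in the treated libraries, against 37.3, 23.8 and 19.4 FPKM in the untreated ones. Plod2, a lysyl hydroxylase, measured 3.46 and 3.30 FPKM, against 5.44, 6.05 and 3.52 FPKM. Neither gene's groups overlapped, the treated values lying below, as for 3.18% of all genes tested, with log2 fold changes of -1.09 (SE 0.35) and -0.47 (SE 0.26) and a limma adjusted p of 1.00 each. In the same list Colgalt2, a collagen galactosyltransferase, was named because its treated values, 1.42 and 1.09 FPKM, lay above the untreated ones, 1.06, 1.06 and 0.819 FPKM. It was 1 of 23 tested genes with both treated values above, against 5.5% of all genes tested, and lay close to the filter of 1 FPKM.

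Among 19 tested genes of TGF-beta signalling, 11 had higher and 8 lower means with the drug, and 0 passed. Skil, an inhibitor of SMAD proteins, measured 11.6 and 17.4 FPKM in the treated libraries, against 9.18, 5.55 and 9.52 FPKM in the untreated ones. This gave 0.82 as log2 fold change (SE 0.32, limma adjusted p = 1.00). Skil was 1 of the 19 with both treated values above, against 5.5% of all genes tested. Among 14 tested receptors for matrix, 7 had higher and 7 lower means, and 0 passed. Itga6, of a laminin receptor, measured 38.7 and 42.5 FPKM with the drug, against 37.1, 33.2 and 36.7 FPKM without it, a log2 fold change of 0.18 (SE 0.15). It was 1 of the 14 with both treated values above, again against 5.5% of all genes tested. Itga5, of the fibronectin receptor, had 0.34 (SE 0.27). Both had a limma adjusted p of 1.00.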

How the data were processed

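The authors deposited a table per sample with FPKM for 45320 Ensembl identifiers, per the file headers. The submitters' processing notes name CASAVA 1.7 and GRCm38. Which aligner and quantifier were run, on which annotation and with what use of strand, is not given in the sources used here. Per the labels' protocols, whole tissue was lysed in Trizol and its total RNA sequenced on Illumina flow cells. Symbols and coordinates came from GENCODE M21 (GRCm38), which held 44395 identifiers.

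The fit used limma 3.58.1 in R 4.3.3 on log2(FPKM + 0.5), with an empirical Bayes variance trend. It covered the 13527 genes that averaged 1 FPKM or more, two-sided, with residual df of 3. Fits with the muscle covariate or with a library left out had fewer residual df. The script was tested on simulated data. The planned 3 treated samples became 2 libraries. Depth is unknown, so no counting intervals are given. Acta1 had no matching identifier and was not analysed here. Tables used Python 3.11.15 with pandas 2.3.3, numpy 2.4.6 and matplotlib 3.10.9.

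The members, lists and tests were chosen with earlier results of these data known. Fold changes are given for the 2 tested genes of smallest p in each role class and each list of further genes, and for any member past the threshold. Of the genes this rule names, 1 is not reported here. Alternatives covered pseudocount, filter, scaling, variance model, sample weights, the identical tables counted separately, a muscle covariate and each library left out.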

Additional observations from a re-analysis of the deposited data

How the results depend on the processing

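No member passed the threshold under 15 of the 16 alternatives run, and 1 did (Postn) with the muscle marker covariate. The count over all genes, 6, became 2 with a pseudocount of 0.1, 0 without a filter, 1 with a filter of 5 FPKM, 10 with sample weights and 1944 with the muscle covariate, and ranged from 0 to 158 with a library left out. Without untreated 13, untreated 15, treated 17 or treated 33/35 it was 0, and without untreated 14 it was 158. The members' count stayed at 0 in each of these, and their median log2 fold change ranged from -0.08 without untreated 15 to 0.42 without treated 17. The fibrillar to basement membrane difference of 0.30 (log2) ranged from -0.07 without untreated 15 to 0.51 without untreated 14, and was 0.11 as a difference of mean log2 values and -0.004 without Col1a1, Col1a2 and Col3a1.

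Of 24 named genes, 9 turned their direction under some alternative, with no call at stake and the cause not tested. With the muscle covariate the log2 fold change was -0.0875 for Col18a1, -0.0651 for Lama2, -0.0429 for Loxl2 and 0.0257 for Lox, and quantile normalization gave -0.0062 for Loxl2. With a library left out it ranged from -0.16 to 0.6926 for Col1a2, -0.17 to 0.8379 for Col3a1, -0.4803 to 0.18 for Col4a5, -0.19 to 0.4406 for Col18a1, -0.0012 to 0.7916 for Lum, -0.10 to 0.3995 for Loxl2, -0.3592 to 0.17 for Lox and -0.0353 to 0.6957 for Mmp2. The turned values came without untreated 15 for Col1a2, Col3a1, Col18a1, Lum, Loxl2 and Mmp2, without treated 33/35 for Col3a1, Col18a1 and Loxl2, and without treated 17 for Col4a5 and Lox. With 1 treated library left, that library is assumed to vary like the others. No paired analysis was possible because the labels do not say whether any samples were paired. The unknown depth limits the scarce genes Col4a3, Col4a4 and Timp1 most.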
